A study of Mus musculus with 56 samples.

Results

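The transcription factor p53 is held at a low level in unstressed cells by its inhibitors Mdm2 and Mdm4 and is stabilised when DNA is damaged or transcription stalls. It then switches on genes that stop the cell cycle, repair DNA, restrain growth or start apoptosis, and Mdm2 itself, which closes a feedback loop. In neurons, which no longer divide, p53 is best known for starting apoptosis after DNA damage, and topoisomerase poisons such as camptothecin are a classic trigger.

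The genes described here are 34 textbook targets and partners of p53, chosen by name with earlier results of these data known. Of these, 31 were measured on at least 1 of 3 types of Affymetrix array, out of 23600 genes with a probe set of their own. The other 3, p53's own gene among them, were not analysed here. All samples were cortical neurons cultured from C57BL6 mouse embryos of embryonic day 13 to 15 and kept for 7 days in vitro. Drug or vehicle was then given for 24 or 72 h, and which of these times an array had is stated only for the 24 h groups.

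On the 3' arrays, topotecan at 300 nM was set against vehicle (n = 3 each), and ICRF-193 at 3 µM against a vehicle group of its own (n = 3 each). On the earlier gene-level arrays 1 array each had topotecan at 3, 30, 150, 500 and 1000 nM, 2 arrays had 300 nM and 3 had vehicle. On the later gene-level arrays there were 6 arrays of topotecan at 1 µM and 6 of its vehicle. Irinotecan at 10 µM had 3 arrays, and topotecan had 1 array after 24 h of drug and 1 after 24 h of drug and a washout. Irinotecan and the 24 h groups shared 2 vehicle arrays, and the labels give no dose for the 24 h groups. Lentivirus carried a short hairpin RNA (shRNA) against Top1 (n = 3), one against Top2b (n = 3) or a scrambled control (n = 3). DRB at 100 µM (n = 1) had 1 vehicle array. The oxidants, hydrogen peroxide (100 µM, n = 1) and paraquat (10 µM, n = 1), shared 2 vehicle arrays.

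Topotecan and irinotecan are camptothecin derivatives that trap topoisomerase I on DNA. ICRF-193 blocks topoisomerase II without trapping it in DNA breaks, DRB blocks transcription elongation, and hydrogen peroxide and paraquat are oxidants. Nothing in the labels says that replicate arrays came from separate cultures, so p-values measure the spread between arrays. In a culture of mixed cells, fewer cells of a type and less RNA per cell cannot be told apart.

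A p53 motif was searched near the starts of these genes. The sequences of Cdkn1a, Mdm2, Ccng1 and Sesn1, chosen from those that held it, are printed below. An exact match to the decamer of the p53 response element, a palindromic motif, was searched in RefSeq promoter windows of 300 bases, of which 250 lie before the transcript start and 50 after it. Of the 31 genes 23 had a window, and 9 of these held at least 1 decamer (39.1%), against 9.55% of all 27025 genes with a window. The 9 genes were Aen, Ccng1, Cdkn1a, Ckap2, Ei24, Gadd45a, Mdm2, Polk and Sesn1. The windows of other targets, such as Bbc3, Fas and Phlda3, held none. Sequence outside the windows was not searched. A match is a description of letters and was not tested for binding. The 250 bases before the start are printed 5′ to 3′ with the decamers in capitals (RefSeq, build GRCm38.p6). Cdkn1a is shown at the upstream one of its annotated starts (chr17:29090729-29090978, plus strand), Mdm2 at chr10:117710759-117711008 (minus strand), Ccng1 at chr11:40755287-40755536 (minus strand) and Sesn1 at chr10:41887189-41887438 (plus strand).
Cdkn1a: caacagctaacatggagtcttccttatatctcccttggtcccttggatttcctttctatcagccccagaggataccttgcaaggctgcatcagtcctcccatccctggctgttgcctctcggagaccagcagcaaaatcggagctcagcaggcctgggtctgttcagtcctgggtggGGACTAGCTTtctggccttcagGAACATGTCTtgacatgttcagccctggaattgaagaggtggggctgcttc
Mdm2: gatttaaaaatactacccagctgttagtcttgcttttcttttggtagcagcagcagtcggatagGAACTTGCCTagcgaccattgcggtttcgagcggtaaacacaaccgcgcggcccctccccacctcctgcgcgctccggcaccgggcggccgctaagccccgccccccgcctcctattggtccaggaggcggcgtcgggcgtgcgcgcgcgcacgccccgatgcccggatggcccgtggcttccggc
Ccng1: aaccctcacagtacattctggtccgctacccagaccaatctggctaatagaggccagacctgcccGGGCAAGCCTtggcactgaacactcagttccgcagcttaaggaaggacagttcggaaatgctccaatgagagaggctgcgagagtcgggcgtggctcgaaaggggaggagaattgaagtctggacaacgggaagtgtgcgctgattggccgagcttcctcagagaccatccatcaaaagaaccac
Sesn1: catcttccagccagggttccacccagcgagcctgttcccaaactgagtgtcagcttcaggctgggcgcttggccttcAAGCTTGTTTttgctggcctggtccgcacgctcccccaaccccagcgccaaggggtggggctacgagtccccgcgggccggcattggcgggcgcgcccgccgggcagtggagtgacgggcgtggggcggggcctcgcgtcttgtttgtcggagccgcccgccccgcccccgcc
The Cdkn1a sequence held 2 decamers with 12 bases between them, ending 63 and 41 bases before the start. Only 0.359% of all windows held 2 or more. Decamers with a mismatch were not marked, such as tgacatgttc, which directly follows the Cdkn1a decamer nearer the start. The single decamers of Mdm2, Ccng1 and Sesn1 ended 176, 175 and 163 bases before their starts. The windows at the other start of Cdkn1a and of Sesn1 held none.

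Values below are log2 of the deposited intensity, and differences are treated minus control on that scale. The arrays of a type had been normalized in separate sets, so levels are compared only within an experiment and never between genes. Genes under the 40th percentile of mean level were not tested. That left 28 of 31 p53 target genes on the 3' arrays (without Tnfrsf10b, Trp73 and Sfn), 29 of 30 on the earlier gene-level arrays (without Trp73) and 29 of 29 on the later ones, where Ddb2 and Gadd45a have no probe set of their own. Neuronal markers were bright on every array type, with all 11 general neuronal markers of the later arrays above that percentile, while 5 of 11 microglial markers lay under it. Most markers of astrocytes, fibroblasts and proliferating cells also lay above that percentile there, among them Fabp7 (12.15), Fn1 (10.77) and Pcna (9.32). S100b (4.01) and Lum (4.87) lay under it. Several arrays stood apart from their group. They were vehicle 3 of the 300 nM experiment, vehicle 4 of the 1 µM experiment and replicate 1 of each shRNA group. In the dose series they were the 1000 nM array with vehicles 1 and 2. The 2 vehicle arrays of the oxidants differed from each other, and which of them was unusual cannot be told.

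ICRF-193 gave the highest count of p53 target genes past the threshold among the 6 comparisons of replicated groups. At an adjusted p of at most 0.05 (limma, adjusted over all genes), 12 of 28 rose and 2 fell, against 8.29% of all tested genes higher and 10.3% lower. The median difference was 0.19 over the p53 target genes and 0.00 over all genes. Fitted with the replicate numbers as a block, 17 rose and 3 fell, against 12.7% and 13.8% of all genes. The calls gained were the rises of Polk (0.27, adjusted p = 0.0101), Ccng1, Gadd45a (0.18, adjusted p = 0.0331), Phlda3 (0.33, adjusted p = 0.0353) and Plk2 (0.13, adjusted p = 0.0375) and the fall of Ddit4 (-0.18, adjusted p = 0.0381). The count fell to 5 higher and 1 lower without ICRF-193 replicate 2 or without replicate 3. It was 8 higher and 1 lower without ICRF-193 replicate 1 or vehicle replicate 2, and 9 higher and 1 lower without vehicle replicate 1. All-gene counts of each of these leave-out fits are not given here, so the changes do not set the p53 target genes apart. With a new quantile normalization 1141 genes rose and 931 fell over the array, against 905 and 1126 as deposited. Astrocyte markers were lower on the ICRF-193 arrays (9 of 11 tested passed, summed intensity 33110 to 37048 against 44381 to 50947 in vehicle), none at 0. In limma 7 of 11 general neuronal, 5 of 7 excitatory, 5 of 8 inhibitory and 4 of 6 oligodendrocyte markers had an unadjusted p of at most 0.05. Their directions are not given here, and the part of all these markers in the result was not tested.

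Topotecan at 1 µM raised 7 of 29 p53 target genes and lowered 2, against 18.3% and 20.8% of all genes. The share that rose was thus near that of all genes. The median difference was 0.10, and -0.01 over all genes. New quantile normalization gave 7 higher and 5 lower. The count was 4 higher and 2 lower without topotecan replicate 1, which lost Pmaip1, Polk and Sesn1, 4 higher and 4 lower without vehicle replicate 6, 5 higher and 4 lower without topotecan replicate 6, and 11 higher and 3 lower without vehicle replicate 4. All-gene counts of these fits are not given here, so the changes cannot be set against those of all genes. The general neuronal markers were lower with the drug (8 of 11 tested, summed intensity 14822 to 18915 against 17859 to 22771) and so were the astrocyte markers (7 of 11 tested, 7617 to 8266 against 10376 to 11208). Of the markers of proliferating cells 7 of 15 fell and 1 rose (2792 to 3633 against 3032 to 4259), of inhibitory neurons 4 of 7 fell and 1 rose (1129 to 1726 against 3147 to 4567) and of oligodendrocytes 3 of 5 tested fell. No marker was at 0, and their part was not tested.

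Irinotecan at 10 µM raised 10 of 29 and lowered 2, against 16.5% and 11.7% of all genes. The median difference was 0.21, and 0.07 over all genes. Without vehicle replicate 1 only Bbc3, Perp and Trp53inp1 rose and Fbxw7 fell. Without vehicle replicate 2, 5 rose and 1 fell, without irinotecan replicate 2, 6 rose and 1 fell, and with the dim genes tested as well, 3 rose and 1 fell. All-gene shares are not set beside these counts, so the changes do not set the p53 target genes apart. The fits without a vehicle replicate had 1 vehicle array left. Inhibitory neuron markers were lower with irinotecan (6 of 7 tested, summed intensity 1395 to 1804 against 2810 to 3020), as were 4 of 11 astrocyte markers tested, none at 0. In limma 6 of 7 excitatory neuron and 5 of 9 fibroblast markers had an unadjusted p of at most 0.05. Their directions are not given here, and the part of all these markers was not tested.

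Topotecan at 300 nM called none of the 28 by limma, against 1.3% of all genes higher and 3.1% lower, and 4 reached an unadjusted p of 0.05. The median difference was 0.27, and 0.06 over all genes, and it was 0.06 for the p53 target genes without vehicle replicate 3. Without vehicle replicate 1, Perp rose and Fbxw7 fell. On simulated data this experiment recovered 55% of changes of 1.0 and 5% of changes of 0.5, so smaller differences were mostly not detectable. Astrocyte markers were lower with the drug (5 of 11 tested passed, summed intensity 25300 to 37050 against 50383 to 67858), none at 0, and their part was not tested.

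**Figure D1:**
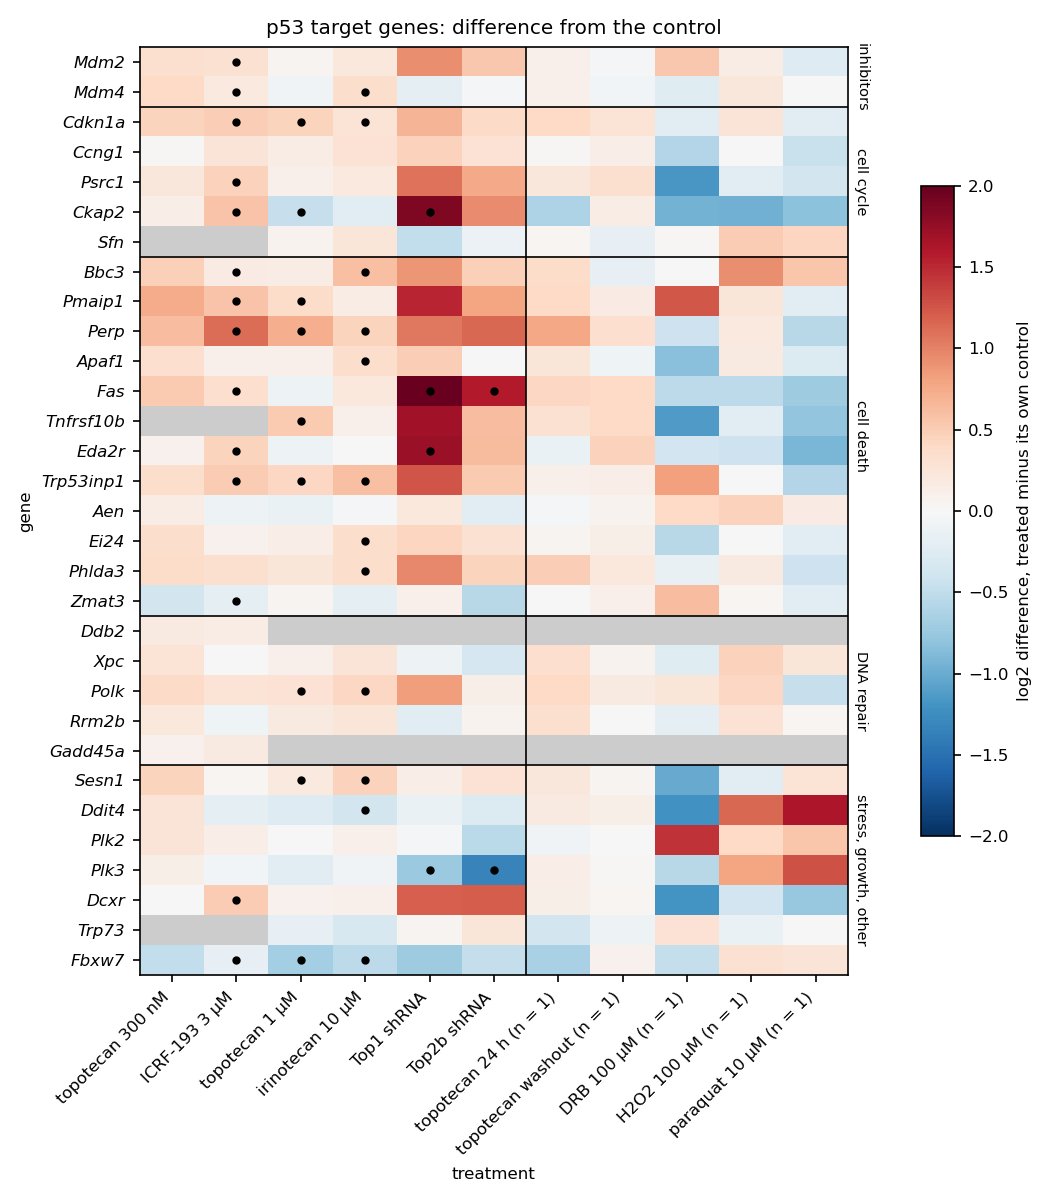
Log2 difference of each p53 target gene (rows, by role) between treated and control arrays in 11 comparisons (columns). Red is higher and blue lower than the control, dots mark genes past the adjusted p of 0.05 in the first 6 columns, the last 5 columns have 1 treated array and no test, and grey cells were not tested. Perp is red in all 6 tested columns and Fbxw7 blue in all 6, while Ddit4 is the reddest gene with hydrogen peroxide and paraquat and the bluest with DRB.

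Mdm2 and Mdm4, the inhibitors of p53, came first by role. Mdm2, the ubiquitin ligase that marks p53 for destruction, stood at 10.29, 10.39 and 10.36 on the ICRF-193 arrays and at 9.97, 10.07 and 10.10 on the vehicle arrays. Every ICRF-193 array was above every vehicle array, and the difference was 0.30 ± 0.05 (SE, adjusted p = 0.00672, n = 3 each). Mdm4, its relative that masks the activation domain of p53, was 10.27, 10.25 and 10.28 with ICRF-193 and 10.05, 10.10 and 10.05 with vehicle, also without overlap (0.20 ± 0.04, adjusted p = 0.00853).

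On the arrays of topotecan at 1 µM Mdm2 was 9.20, 9.44 and 9.59 (lowest, median and highest of 6) and 9.25, 9.33 and 9.71 in vehicle. The groups overlapped throughout (0.05 ± 0.09, adjusted p = 0.660, 95% interval -0.13 to 0.24). Mdm2 was 8.13, 8.14 and 8.32 with irinotecan and 7.87 and 8.10 in vehicle, with no overlap but an adjusted p of 0.162 (0.21 ± 0.10). Mdm4 was 8.79, 8.81 and 8.74 with irinotecan and 8.37 and 8.47 in vehicle, and rose by 0.36 ± 0.08 (adjusted p = 0.0135).

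Cdkn1a, which encodes the cyclin-dependent kinase inhibitor p21, was the cell cycle gene that moved in most drug experiments. It was 11.74, 11.81 and 11.79 with ICRF-193 and 11.07, 11.29 and 11.53 with vehicle (0.49 ± 0.10, adjusted p = 0.0178). With topotecan at 1 µM the lowest, median and highest arrays were 11.97, 12.04 and 12.15, against 11.45, 11.56 and 11.89 in vehicle (0.45 ± 0.08, adjusted p = 0.000354). All 6 topotecan arrays exceeded all 6 vehicle arrays, and this call held in every alternative tried. The 3 irinotecan arrays were 10.72, 10.71 and 10.70 and the vehicle arrays 10.45 and 10.41, again apart (0.28 ± 0.07, adjusted p = 0.0246). With topotecan at 300 nM Cdkn1a was 12.60, 12.51 and 13.44, against 12.89, 12.75 and 11.57 in vehicle, so that 2 vehicle arrays lay above 2 drug arrays (0.45 ± 0.39, adjusted p = 0.548).

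Ccng1, cyclin G1, which ties a phosphatase to Mdm2, was 12.01, 12.04 and 12.18 with ICRF-193 and 11.58, 11.80 and 12.07 with vehicle. The groups overlapped and the difference of 0.26 ± 0.11 passed only with the replicate block (adjusted p = 0.147 without it and 0.0269 with it). In the 300 nM, 1 µM and irinotecan experiments its difference was 0.03, 0.15 and 0.29 with adjusted p of 0.962, 0.103 and 0.0564. Ckap2, a microtubule protein of the mitotic spindle, went in opposite directions in these experiments. It rose with ICRF-193 (8.68, 8.90 and 9.02 against 8.14, 8.34 and 8.42 in vehicle, 0.57 ± 0.10, adjusted p = 0.00821). It fell by 0.46 on the log2 scale with topotecan at 1 µM (SE 0.12, adjusted p = 0.00667, median 8.16 against 8.54 in vehicle). These 2 effects come from different array types and their difference was not tested. Psrc1, another spindle protein, rose with ICRF-193 by 0.47 ± 0.10 (adjusted p = 0.0194).

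Perp, a membrane protein of desmosomes that p53 uses in apoptosis, had the largest rise with ICRF-193 and with topotecan at 1 µM among the p53 target genes. With ICRF-193 it was 8.81, 8.80 and 9.71, against 8.07, 8.07 and 7.83 in vehicle (1.11 ± 0.23, adjusted p = 0.0151). Replicate 3 carried the highest drug value and the lowest vehicle value. With topotecan at 1 µM it was 8.80, 8.93 and 9.22, against 7.87, 8.23 and 8.63 in vehicle (lowest, median and highest of 6 each), again with no overlap (0.73 ± 0.11, adjusted p = 0.000185). Irinotecan arrays had 7.15, 7.06 and 7.23 and vehicle arrays 6.73 and 6.68 (0.44 ± 0.08, adjusted p = 0.0078). With topotecan at 300 nM Perp was 9.31, 9.13 and 9.00, against 8.79, 8.41 and 8.39 in vehicle. All drug arrays were higher, but the difference of 0.61 ± 0.15 missed the threshold (adjusted p = 0.0704).

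Trp53inp1, a nuclear protein that enhances p53 activity and acts in autophagy, rose in 3 of the 4 drug experiments. It was 12.05, 12.11 and 12.14 with ICRF-193 and 11.37, 11.60 and 11.79 with vehicle (0.51 ± 0.09, adjusted p = 0.0106). It was 8.77, 8.71 and 8.96 with irinotecan and 8.23 and 8.19 with vehicle (0.60 ± 0.09, adjusted p = 0.00434). With topotecan at 1 µM the medians were 10.29 and 9.77 in vehicle (0.41 ± 0.11, adjusted p = 0.00794), and the groups overlapped, with vehicle replicate 4 at 10.29.

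The BH3-only genes Bbc3 (PUMA) and Pmaip1 (NOXA), whose products block the survival proteins of the BCL2 family, each passed in 2 of the 4 drug experiments. Bbc3 was 5.55, 5.52 and 5.73 with irinotecan and 4.97 and 5.04 with vehicle, and rose by 0.59 ± 0.09 (adjusted p = 0.00374). Its vehicle values lay close to 5.01, the mean level under which genes of the later arrays were not tested. It was 9.07, 9.06 and 9.06 with ICRF-193 and 8.85, 8.89 and 8.97 with vehicle, a rise of 0.16 ± 0.04 (adjusted p = 0.0368). Pmaip1 was 9.39, 9.67 and 9.60 with ICRF-193 and 8.73, 9.07 and 9.18 with vehicle (0.56 ± 0.12, adjusted p = 0.0173). It also rose with topotecan at 1 µM (0.37 ± 0.14, adjusted p = 0.0455), where the groups overlapped, and its irinotecan difference was 0.15 (adjusted p = 0.220).

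The death receptors gave few calls. Tnfrsf10b rose with topotecan at 1 µM by 0.52 ± 0.13 (adjusted p = 0.00671, median 9.33 against 8.68 in vehicle), with overlapping groups, and its irinotecan difference was 0.10 (adjusted p = 0.463). Fas and Eda2r, 2 further receptors of the tumour necrosis factor family, rose with ICRF-193 by 0.33 ± 0.10 and 0.44 ± 0.10 (adjusted p = 0.0495 and 0.0221). In the 1 µM topotecan experiment they differed by -0.10 and -0.11 (adjusted p = 0.573 and 0.469). Apaf1, the scaffold of the apoptosome, rose with irinotecan (0.35 ± 0.08, adjusted p = 0.0152), as did Phlda3, which blocks Akt at the membrane (0.35 ± 0.08, adjusted p = 0.0193), and Ei24, an endoplasmic reticulum protein of autophagy (0.35 ± 0.10, adjusted p = 0.0342). Zmat3, an RNA-binding regulator of splicing, went the other way with ICRF-193, at 10.52, 10.54 and 10.52 against 10.74, 10.73 and 10.69 in vehicle (-0.19 ± 0.04, adjusted p = 0.0099).

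Of the repair genes only Polk, a translesion DNA polymerase, passed the test in these 4 experiments without a block. It rose with topotecan at 1 µM by 0.29 ± 0.09 (adjusted p = 0.027) and with irinotecan by 0.41 ± 0.09 (adjusted p = 0.0169). Xpc and Rrm2b, a damage sensor and a ribonucleotide reductase subunit, did not pass in any of the 4, nor did Ddb2 and Gadd45a on the 3' arrays, where Gadd45a passed only with the replicate block. Sesn1, a stress sensor that restrains the growth kinase mTORC1, was 7.63, 8.01 and 7.81 with irinotecan and 7.39 and 7.34 with vehicle (0.46 ± 0.11, adjusted p = 0.025). It also rose with topotecan at 1 µM (0.20 ± 0.06, adjusted p = 0.0234). Ddit4, another brake on mTORC1, fell with irinotecan (7.70, 7.53 and 7.61 against 7.99 and 7.95 in vehicle, -0.36 ± 0.08, adjusted p = 0.0161). Dcxr, a xylulose reductase, rose with ICRF-193 (0.50 ± 0.13, adjusted p = 0.0376).

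Fbxw7, the substrate receptor of a ubiquitin ligase that destroys cyclin E and Myc, fell in 3 of the 4 drug experiments. With topotecan at 1 µM it was 7.85, 7.90 and 8.09, against 8.26, 8.53 and 9.02 in vehicle (lowest, median and highest of 6 each). No drug array reached a vehicle array (-0.67 ± 0.11, adjusted p = 0.000197). It was 8.19, 8.30 and 8.26 with irinotecan and 8.73 and 8.82 with vehicle (-0.52 ± 0.08, adjusted p = 0.00332), and 11.47, 11.50 and 11.54 with ICRF-193 and 11.73, 11.65 and 11.60 with vehicle (-0.16 ± 0.04, adjusted p = 0.0461). The topotecan and irinotecan calls of Fbxw7 held in every alternative tried. The 2 camptothecin derivatives were given at different doses on arrays normalized apart, so their values stand side by side and no difference between them was tested.

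**Figure D2:**
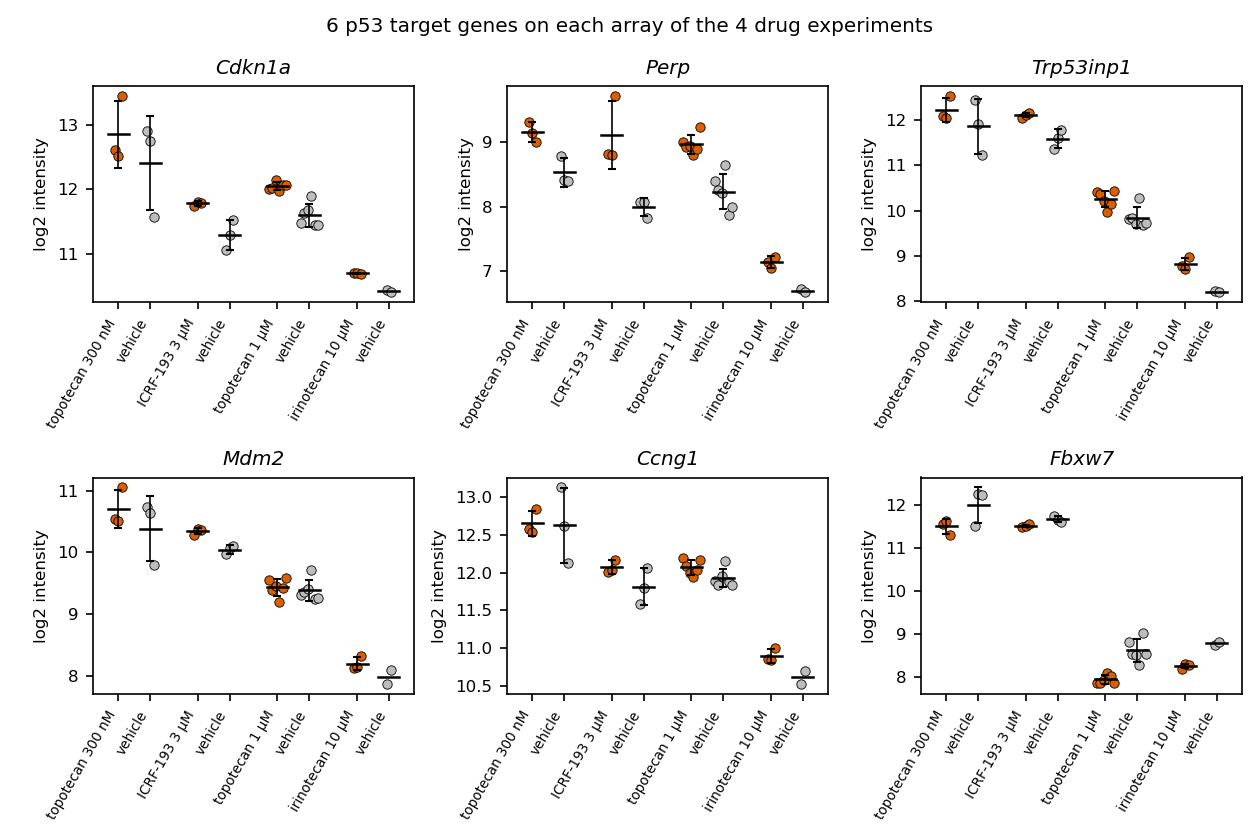
Log2 intensity (y axis) of 6 p53 target genes on every array of the 4 drug experiments (x axis, drug left of its vehicle). Orange points are drug arrays and grey points vehicle arrays, long lines are means and error bars SD for groups of 3 or more. Perp points of the drug lie above their vehicle in all 4 experiments, while the 300 nM vehicle arrays of Cdkn1a, Mdm2 and Ccng1 spread over the drug arrays.

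The effects of topotecan at 300 nM and of ICRF-193 were measured on 1 array type, and their difference was tested as a contrast of the 4 groups. No p53 target gene passed in limma, against 1.19% of all genes higher and 2.41% lower, and 3 of 28 had an unadjusted p of at most 0.05. Those were Rrm2b, Ei24 and Sesn1. The difference of the Perp effects was -0.50 (topotecan minus ICRF-193, 95% interval -1.18 to 0.18), that of Cdkn1a -0.04 (-1.05 to 0.98), of Mdm2 0.02 (-0.66 to 0.70) and of Ccng1 -0.23 (-0.89 to 0.43).

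The topotecan dose series asked whether the genes followed the dose. In the slope over the 7 steps from vehicle to 1000 nM only Fbxw7 passed, with -0.08 per step (SE 0.02, adjusted p = 0.0233). None of the other 28 passed, against 1.51% of all genes with a rising and 1.95% with a falling slope, and 3 of 29 had an unadjusted p of at most 0.05 in limma. Fbxw7 was 9.44, 9.45 and 9.42 in vehicle, 9.33 at 3 nM, 9.40 at 30 nM, 9.29 at 150 nM, 9.24 and 9.27 at 300 nM, 9.08 at 500 nM and 8.81 at 1000 nM. Every drug array was below every vehicle array. The adjusted p rose to 0.0702 without the 500 nM array, 0.0531 without vehicle 1, 0.0571 without vehicle 2, 0.0880 on a log10 dose scale and 0.0587 on the 7 arrays left without the 1000 nM array and vehicles 1 and 2 (slope -0.05).

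Cdkn1a had no order by dose below 1000 nM. It was 11.34, 11.35 and 10.90 in vehicle, 11.05 at 3 nM, 10.85 at 30 nM, 10.76 at 150 nM, 10.81 and 10.83 at 300 nM, 10.90 at 500 nM and 11.84 at 1000 nM. Vehicles 1 and 2 lay above every drug array but the 1000 nM one. These 3 arrays also had more RNA of the markers of proliferating cells (summed intensity 5919 at 1000 nM and 10223 and 10462 in vehicles 1 and 2, against 2339 to 2573 on the other 7) and of astrocytes (19598, 28245 and 29063 against 9113 to 12867), and the part of this in the result was not tested. Of 30 p53 target genes 24 were higher in vehicles 1 and 2 than in vehicle 3, with a median difference of 0.41. Against vehicles 1 and 2 alone the 1000 nM array was higher for 22 of 30, with a median of 0.21, and Cdkn1a differed by 0.49. Shares over all genes are not given here for these counts, so they do not set the p53 target genes apart.

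Perp was 7.97, 8.09 and 7.48 in vehicle, 7.68 at 3 nM, 7.59 at 30 nM, 7.62 at 150 nM, 7.49 and 7.76 at 300 nM, 7.76 at 500 nM and 9.20 at 1000 nM. Its highest value was thus at the top dose, with no order below it. With the split of these arrays as a term in the fit, an alternative chosen after seeing the data, Perp, Mdm4, Apaf1 and Ei24 rose with dose and Fbxw7 and Ddit4 fell, against 12.5% of all genes with a rising and 12.9% with a falling slope. The Perp slope was then 0.12 ± 0.03 per step (adjusted p = 0.0116), and the Cdkn1a slope 0.03 ± 0.02 (adjusted p = 0.243). On the 7 arrays that lie together Ei24 rose (0.05 per step, adjusted p = 0.0356) and Ddit4 fell (-0.09, adjusted p = 0.0146), while Fbxw7 did not pass, against 4.64% and 5.34% of all genes.

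**Figure D3:**
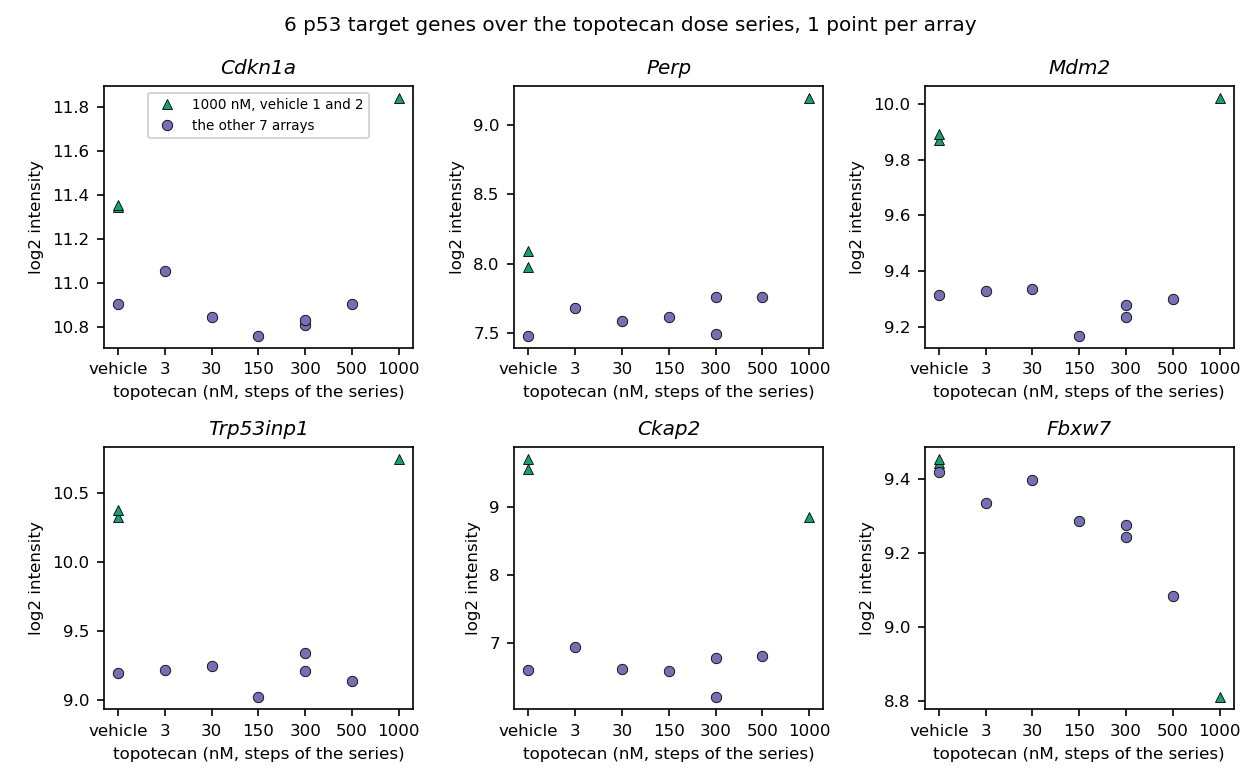
Log2 intensity (y axis) of 6 p53 target genes over the steps of the topotecan series (x axis, vehicle and 3 to 1000 nM), 1 point per array. Triangles mark the 1000 nM array and vehicles 1 and 2, which lie above the other arrays for Ckap2, Mdm2 and Trp53inp1. Fbxw7 is lowest at 500 and 1000 nM.

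In the shRNA experiment the targeted genes were checked first. Top1 was 7.62, 8.39 and 8.29 on the arrays labelled Top1 shRNA and 8.98, 8.46 and 8.55 on the control arrays (-0.57, adjusted p = 0.193). Top2b was 8.62, 6.87 and 6.80 on the arrays labelled Top2b shRNA and 9.30, 8.39 and 8.17 on the control arrays (-1.19, adjusted p = 0.220). Both were lower than the control array of the same number in every replicate, by little for Top1 in replicates 2 and 3. Top2b was also lower with Top1 shRNA in replicate 1 (8.25, -1.04 against control), by more than with Top2b shRNA there (-0.68). In replicates 2 and 3 Top2b was 8.76 and 8.60 with Top1 shRNA, 0.40 above control. Top1 differed by -0.10 in replicate 1 and 0.21 in replicates 2 and 3 with Top2b shRNA. Replicate 1 of each group had been normalized in another set than replicates 2 and 3.

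With the arrays labelled Top1 shRNA set against control, Ckap2, Fas and Eda2r rose and Plk3 fell (4 of 29, against 6.08% of all genes higher and 5.79% lower). The median difference of the p53 target genes was 0.49, and -0.02 over all genes. Ckap2 was 8.74, 8.76 and 9.41 with Top1 shRNA and 7.22, 7.20 and 6.89 with control shRNA (1.87 ± 0.25, adjusted p = 0.00312). Fas was 7.82, 9.29 and 8.45 with Top1 shRNA and 6.59, 6.67 and 6.37 with control shRNA (1.97 ± 0.35, adjusted p = 0.00832). Eda2r was 7.05, 7.98 and 7.98 against 6.69, 5.62 and 5.50 in control (1.73 ± 0.36, adjusted p = 0.016). The groups did not overlap for any of these 3. Plk3, a polo-like kinase of the stress response, was 7.04, 7.19 and 7.28 with Top1 shRNA and 7.90, 7.88 and 7.97 with control shRNA (-0.74 ± 0.20, adjusted p = 0.0371). New quantile normalization gave 4 higher and none lower by limma.

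Top2b shRNA, measured against the same control arrays, gave 2 calls, against 1.99% of all genes higher and 1.12% lower. Fas was 7.78, 8.43 and 8.20 with Top2b shRNA (1.59 ± 0.35, adjusted p = 0.0399), and Plk3 was 6.38, 6.74 and 6.62 (-1.33 ± 0.20, adjusted p = 0.0166), both clear of the control arrays given above. The median difference was 0.29, and -0.04 over all genes. With the replicate number as a block, Ckap2 (0.95 ± 0.23, adjusted p = 0.0393) and Dcxr (1.21 ± 0.30, adjusted p = 0.0413) rose as well. That gave 3 higher and 1 lower, against 5.58% and 4.58% of all genes. In replicates 2 and 3 the same-numbered arrays were not the closest in their deviations, so this block is not shown to be a pairing. New quantile normalization left only the fall of Plk3. Both calls were lost without Top2b shRNA replicate 2 or 3, without control replicate 2 or 3, and with the dim genes tested as well.

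Replicate 1 differed from replicates 2 and 3 in these genes. In replicate 1 the p53 target genes were mostly lower than control, with a median of -0.27 for Top1 shRNA (12 of 29 above 0) and -0.23 for Top2b shRNA (6 of 29). In replicates 2 and 3 the medians were 0.98 (22 of 29) and 0.69 (23 of 29). The matching medians and counts over all genes are not given here. Cdkn1a shows the pattern, at 11.13, 12.19 and 11.71 with Top1 shRNA, 10.78, 11.71 and 11.65 with Top2b shRNA and 11.03, 11.00 and 10.94 with control shRNA. In replicates 2 and 3 both shRNAs lay above all control arrays, while in replicate 1 Top1 shRNA was 0.10 above its control and Top2b shRNA differed by -0.25. Over all 3 replicates the Top1 shRNA difference was 0.69 ± 0.32 (adjusted p = 0.203) and the Top2b shRNA difference 0.39 (adjusted p = 0.598). Perp was likewise 7.12, 9.20 and 9.18 with Top1 shRNA, 7.57, 9.25 and 8.96 with Top2b shRNA and 7.81, 7.29 and 7.23 with control shRNA. Mdm2 was 8.52, 9.75 and 9.53 with Top1 shRNA and 8.86, 8.08 and 8.07 with control shRNA (0.93 ± 0.37, adjusted p = 0.133).

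Fitted on replicates 2 and 3 alone, 19 of 29 rose and 2 fell with Top1 shRNA, against 20.1% and 24.5% of all genes. With Top2b shRNA 15 rose and 1 fell, against 10.1% and 12.5%. This fit left out the replicate in which these genes were mostly lower, so its counts are not separate support for a rise. With Top1 shRNA, Top1 itself differed from control by -0.17 in replicates 2 and 3, against -1.36 in replicate 1. With the array set as a block the counts were 10 higher and 3 lower for Top1 shRNA, against 13.6% and 14.8%, and 3 higher and 1 lower for Top2b shRNA, against 7.7% and 7.19%. The Top1 shRNA count was 10 higher and 1 lower without Top1 shRNA replicate 1, and 7 higher and 1 lower without control replicate 1. It was 6 higher and 2 lower without Top2b shRNA replicate 1, and 2 higher and none lower without Top1 shRNA or control replicate 2 or 3. All-gene counts of each of these leave-out fits are not given here, so the changes do not set the p53 target genes apart. Fibroblast markers were higher with Top1 shRNA (6 of 9 tested, summed intensity 10852 to 11561 against 2244 to 4539 in control) and with Top2b shRNA (4 of 9 tested, 7367 to 11246). Markers of proliferating cells were higher with Top1 shRNA (4 of 15 tested, 2577 to 3886 against 1202 to 1595) and excitatory neuron markers lower (4 of 7 tested, 761 to 1305 against 2312 to 3290). No marker was at 0, and their part in the result was not tested.

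Set directly against each other, Top1 shRNA and Top2b shRNA differed in none of the 29 by limma (0% of all genes in either direction), with 3 at an unadjusted p of at most 0.05. The Fas difference was 0.38 (95% interval -0.39 to 1.15) and the Cdkn1a difference 0.30 (-0.42 to 1.01). On replicates 2 and 3 alone, with the limit given above, 8 genes were higher with Top1 shRNA, against 6.43% of all genes higher and 7.75% lower. The largest of these were Eda2r at 1.31, Tnfrsf10b at 1.19 and Trp53inp1 at 1.05.

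**Figure D4:**
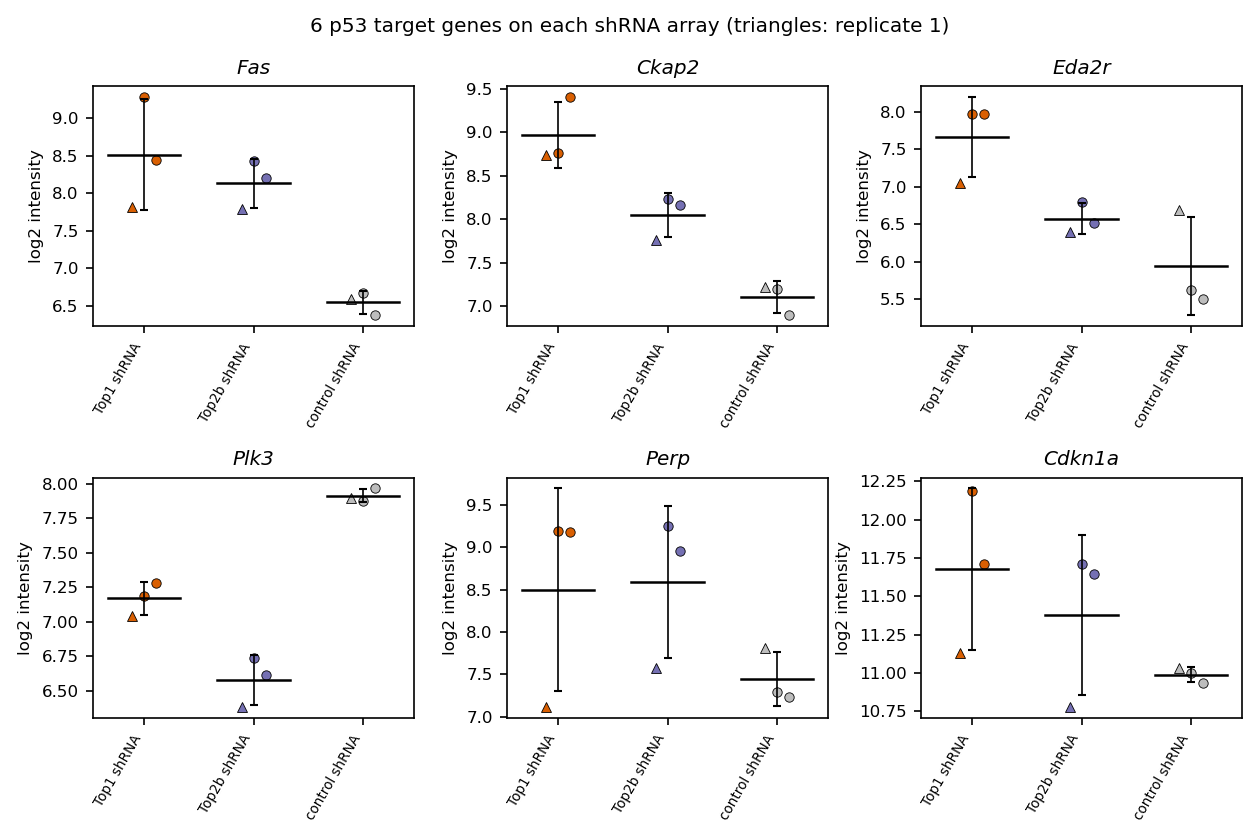
Log2 intensity (y axis) of 6 p53 target genes on each array of the shRNA experiment (x axis, Top1 shRNA, Top2b shRNA and control shRNA). Triangles are replicate 1, circles replicates 2 and 3, long lines means and error bars SD (n = 3). For Perp replicates 2 and 3 of both shRNAs lie above every control array and replicate 1 does not, while Fas and Plk3 separate from control in all 3 replicates.

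The remaining treatments have 1 array each, so no test was made, and genes were counted past 1.5-fold. After 24 h of topotecan only Perp was higher (7.47 against 6.73 and 6.68 in vehicle, 0.77) and Ckap2 and Fbxw7 were lower (-0.62 and -0.64), against 4.63% of all genes higher and 5.28% lower. Fbxw7 was 8.13 after 24 h, against 8.73 and 8.82 in vehicle. After washout none of the 29 was past 1.5-fold, against 0.398% and 0.421% of all genes, with Perp at 7.04 and Fbxw7 at 8.86. The highest differences were those of Eda2r (0.47), Tnfrsf10b (0.41) and Fas (0.40). These 3 lay above both vehicle arrays, at percentiles 98.8, 98.0 and 97.8 of all genes. Others, such as Bbc3 and Sfn (-0.16 each), lay below both vehicle arrays. The 24 h and washout arrays share their 2 vehicle arrays with irinotecan.

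With DRB 4 of 29 were higher past 1.5-fold. Plk2, a polo-like kinase that acts at synapses, was 10.87 with DRB and 9.44 with vehicle (1.44), Pmaip1 7.84 and 6.59 (1.25), Trp53inp1 10.14 and 9.32 (0.82), and Zmat3 9.59 and 8.97 (0.61). Another 8 were lower, against 12.2% of all genes higher and 37% lower. Among them Ddit4 was 7.49 with DRB and 8.71 with vehicle (-1.22) and Sesn1 6.99 and 8.00. The others were Apaf1, Ccng1, Ckap2, Dcxr, Psrc1 and Tnfrsf10b, between -1.19 and -0.59. Cdkn1a was 11.22 with DRB and 11.44 with vehicle, and Mdm2 9.52 and 8.98, both inside 1.5-fold. The median difference was -0.25, and -0.34 over all genes. Astrocyte markers were lower with DRB (10 of 11 past 1.5-fold, summed intensity 3477 against 11640), none at 0, and their part was not tested.

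The stress kinase Plk3 and the mTORC1 brake Ddit4 were higher past 1.5-fold with both oxidants. Ddit4 was 9.01 with hydrogen peroxide and 9.49 with paraquat, against 7.73 and 8.00 in vehicle (1.15 and 1.62). Plk3 was 8.16 with hydrogen peroxide and 8.65 with paraquat, against 7.07 and 7.69 in vehicle (0.78 and 1.27). Both oxidants lay above both vehicle arrays for these genes. Bbc3 was 6.36 with hydrogen peroxide and 6.00 with paraquat, against 5.54 and 5.34 in vehicle, and only the first was past 1.5-fold.

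The vehicle arrays of the oxidants differed from each other in many of the genes. Vehicle 1 exceeded vehicle 2 past 1.5-fold in 16 of 29 and was lower in 3, with a median difference of 0.75. The shares over all genes are not given here, so these counts do not set the p53 target genes apart. Vehicle 1 also had higher markers of fibroblasts (summed intensity 18316 against 6673) and of proliferating cells (5749 against 2509) and lower general neuronal markers (16286 against 28668), and their part was not tested. Perp was 8.90 with hydrogen peroxide and 8.15 with paraquat, against 9.75 and 7.65 in vehicles 1 and 2, so both drug arrays lay between them. The same held for Cdkn1a, at 11.92 with hydrogen peroxide and 11.45 with paraquat, against 12.07 and 11.26.

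For hydrogen peroxide 3 of 29 were higher and 1, the spindle gene Ckap2, lower, against 7.93% and 5% of all genes. Markers of proliferating cells were lower past 1.5-fold in 11 of 15 with hydrogen peroxide and in 10 of 15 with paraquat (summed intensity 2192 and 2479, against 5749 and 2509 in vehicles 1 and 2). Excitatory neuron markers were higher in 2 of 7 and 5 of 7 (2745 and 3769, against 1347 to 3546). No marker was at 0, and their part was not tested. Hydrogen peroxide gave 11 higher and none lower against vehicle 2 alone (5.46% and 5.47% of all genes), and 5 higher and 8 lower against vehicle 1 alone (21.5% and 12.5%). For paraquat 2 were higher and 5 lower, against 13.7% and 7.15% of all genes. That became 3 higher and none lower against vehicle 2 alone (5.1% and 2.3% of all genes), and 5 higher and 15 lower against vehicle 1 alone (26.8% and 14.4%). The 5 lower genes were Ckap2, Dcxr, Eda2r, Fas and Tnfrsf10b, and the differences of Fas and Tnfrsf10b (-0.71 and -0.79) turned to 0.28 and 0.15 against vehicle 2.

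**Figure D5:**
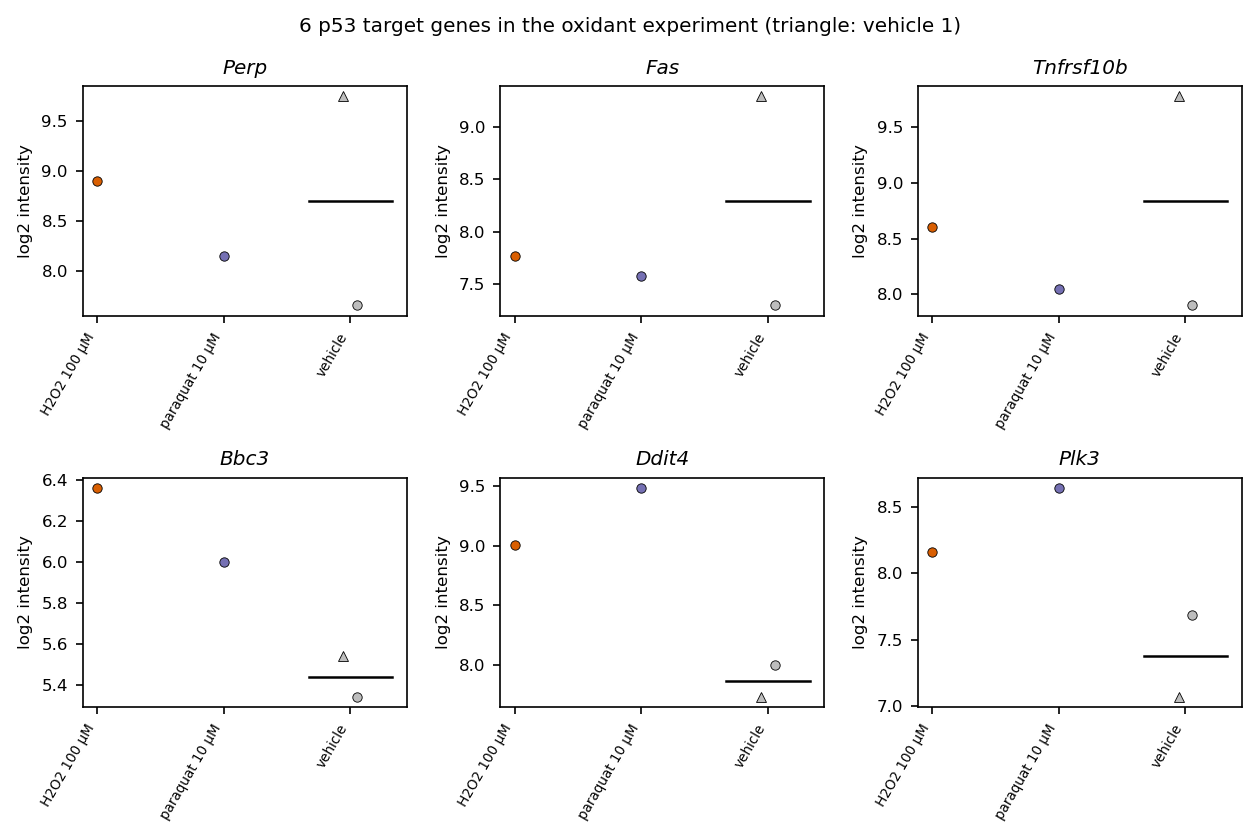
Log2 intensity (y axis) of 6 p53 target genes with hydrogen peroxide, paraquat and vehicle (x axis), 1 point per array. The triangle is vehicle 1, which lies above every other array for Perp, Fas and Tnfrsf10b, while Ddit4, Plk3 and Bbc3 are higher with both oxidants than on both vehicle arrays.

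A list of 42 other p53 targets, also chosen with earlier results of these data known, was read beside these genes. With ICRF-193, 13 of 37 tested rose and 2 fell, against 8.29% and 10.3% of all genes. Among them were Kitl, the ligand of the receptor Kit (0.50 ± 0.05, adjusted p = 0.00102), Ier5 (0.46 ± 0.05, adjusted p = 0.00151) and Tigar, a brake on glycolysis (-0.37 ± 0.06, adjusted p = 0.00462). With topotecan at 1 µM, 13 of 39 rose and 2 fell, against 18.3% and 20.8% of all genes, led by the receptor Epha2 (0.85 ± 0.11, adjusted p = 3.78e-05), the cytokine Lif (0.70 ± 0.11, adjusted p = 0.000162) and the autophagy gene Dram1 (0.65 ± 0.08, adjusted p = 1.95e-05). With irinotecan also 13 of 39 rose and 2 fell, against 16.5% and 11.7% of all genes, led by Btg2, an antiproliferative gene (0.47 ± 0.07, adjusted p = 0.00482), and Sesn2 (0.44 ± 0.09, adjusted p = 0.0103). Ascc3, a helicase of alkylation repair, fell in 3 experiments, with -0.69 ± 0.13 for topotecan at 300 nM (adjusted p = 0.0296), -0.39 ± 0.06 at 1 µM (adjusted p = 8.56e-05) and -0.62 ± 0.09 for irinotecan (adjusted p = 0.00282). Top1 shRNA raised 11 of 39, against 6.08% of all genes, and Top2b shRNA 2 of 39, against 1.99%. None fell at the threshold, against 5.79% and 1.12% of all genes.

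Of 26 regulators of p53, chosen in the same way, 24 were tested on the later arrays. Irinotecan raised 6 and lowered 1, against 16.5% and 11.7% of all genes. Topotecan at 1 µM raised 4 and lowered 2, against 18.3% and 20.8%, so its counts were not above those of all genes. Trp53bp2, which steers p53 towards apoptotic targets, rose in both, by 0.72 ± 0.09 with irinotecan (adjusted p = 0.00133) and by 0.34 ± 0.06 with topotecan (adjusted p = 0.000495). Irinotecan also raised Sirt1, a deacetylase of p53 (0.51 ± 0.11, adjusted p = 0.0162), and Ppm1d, a phosphatase that shuts the response down (0.34 ± 0.07, adjusted p = 0.0143). Prkdc, the catalytic subunit of a DNA damage kinase, fell with topotecan at 1 µM (-0.30 ± 0.06, adjusted p = 0.000818), and Atr, another damage kinase, fell with irinotecan (-0.28 ± 0.08, adjusted p = 0.0423). With ICRF-193 none of 21 regulators passed in limma, against 8.29% and 10.3% of all genes, and 1 had an unadjusted p of at most 0.05. With Top1 shRNA only Chek2, a checkpoint kinase, rose (1.36 ± 0.25, adjusted p = 0.00959), against 6.08% of all genes.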

How the data were processed

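Expression was measured on 56 Affymetrix arrays, with intensity values deposited by the authors after Affymetrix Expression Console and RMA, per the submitters' processing notes; versions are not given in the sources used here. The deposited intensity values were linear although RMA values are usually log2, so log2 was taken here. The level of the columns showed that sets of arrays had been normalized apart. Probe sets with 1 gene symbol were used, the brightest per gene, and those dimmer on average than the 40th percentile were left out, which kept 10916, 11292 and 13308 genes on the 3', earlier and later arrays. Comparisons were fitted with limma 3.58.1 in R 4.3.3 (lmFit, eBayes, 2-sided, Benjamini-Hochberg over all genes tested, threshold 0.05), each on its own experiment and the 3 shRNA groups in 1 fit. The number of arrays limits the precision. Each fit was tested on simulated data with 200 changed genes. Recovery of changes of 1.0 was 99% for ICRF-193, 100% for topotecan at 1 µM, 90% for irinotecan, 72% for the dose trend and 0% for each shRNA fit. No pair of arrays held the same values.

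Replicate numbers were taken to pair the arrays where all same-numbered pairs correlated above 0.1 in their deviations from the group means. That was so for ICRF-193 (0.38, 0.23 and 0.38), Top2b shRNA against control (0.45, 0.39 and 0.35) and Top1 against Top2b shRNA (0.44, 0.20 and 0.32). For ICRF-193 the own-numbered pair correlated highest in every replicate. In both shRNA comparisons this held only in replicate 1, which had been normalized in another set. Pairing by number cannot be told apart from the array sets there. The members and gene lists were chosen with earlier results of these data known. Named were the p53 target genes, up to 3 rises and falls of each further p53 list past the threshold, Top1 and Top2b, and cell type markers. Alternatives were a new quantile normalization, no filter, the replicate block, the array set as a block, other dose scales, a 2-fold limit and leaving out each array in turn. Some descriptions in the labels contradict the titles, and groups follow the titles.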

Additional observations from a re-analysis of the deposited data

Results flagged for a closer look

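In the vehicle group of the 1 µM topotecan experiment replicate 4 lay far above the other 5 arrays for 4 p53 target genes, at 8.35 for Apaf1, 8.55 for Fas, 9.71 for Mdm2 and 10.29 for Trp53inp1. In the topotecan group replicate 4 lay far below the others for Dcxr, at 7.59. The 29 p53 target genes in these 2 groups of 6 arrays gave 58 sets of values, of which 5 were picked out in this way, and chance picks out about 1 in 20.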

How the results depend on the processing

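The rises of Perp, Cdkn1a, Tnfrsf10b and Trp53inp1 and the falls of Ckap2 and Fbxw7 with topotecan at 1 µM, and the rises of Bbc3 and Trp53inp1 and the fall of Fbxw7 with irinotecan, kept their direction and side of the threshold under every alternative tried. Counts of genes (p53 target genes after the semicolon) moved as follows, the cause not being tested. With the replicate block, topotecan at 300 nM gave 0 genes higher and 1 lower, ICRF-193 1385 higher, irinotecan 1279 higher; 5 higher and 1 lower. Top1 shRNA gave 1541 and 1583; 10 and 2, Top2b shRNA 742 and 610; 3 higher, and the difference of the topotecan and ICRF-193 effects 34 and 81. The block added the 6 ICRF-193 calls given above, and in limma left Top1 against Top2b shRNA at 0 calls, with 1588 genes at an unadjusted p of at most 0.05. With the array set as a block, Top1 shRNA gave 1809 and 1968; 10 and 3, and Top2b shRNA 1025 and 957; 3. On replicates 2 and 3 alone Top1 shRNA gave 2678 and 3266; 19 and 2, Top2b shRNA 1345 and 1658; 15, and Top1 against Top2b shRNA 856 and 1032; 8. With no filter ICRF-193 lowered 661; 1, topotecan at 1 µM raised 3771, irinotecan raised 1075; 3 and 1 lower, Top1 shRNA gave 377 and 237; 0 lower, Top2b shRNA 0 and 0; 0 and 0, and the dose trend 90 higher. New quantile normalization gave 1 p53 target gene higher with topotecan at 300 nM, 1 lower with ICRF-193, 5 lower with topotecan at 1 µM, 0 lower with Top1 shRNA and 0 higher with Top2b shRNA. The dose trend called 89 lower; 0 over log10 dose, 524 and 603; 1 higher on the 7 arrays that lie together, and 1413 and 1458; 4 and 2 with the split as a term, where the slopes of Ccng1 and Mdm2 turned to 0.0068 each. The Cdkn1a slope turned to -0.0229 over log10 dose and -0.0244 on the 7 arrays. At 2-fold DRB gave 808 and 2499; 2 and 5, hydrogen peroxide 221 and 134; 1 and 0, paraquat 462 and 222; 0 lower, topotecan for 24 h 54 and 309; 0 and 0, and washout 3 and 3.

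Leaving out 1 array at a time, genes higher and lower ranged over 9 to 171 and 79 to 327 for topotecan at 300 nM (p53 target genes 0 to 1 both ways, Ccng1 -0.22 to 0.28), and over 355 to 1436 and 517 to 1386 for ICRF-193 (5 to 16 and 1 to 2). Topotecan at 1 µM gave 4 to 11 and 2 to 4 p53 target genes (all-gene counts not given here), and irinotecan 824 to 2044 and 956 to 1393 genes (3 to 10 and 1 to 3). Top1 shRNA gave 287 to 1081 and 163 to 1603 (2 to 10 and 0 to 2), and Top2b shRNA 0 to 325 and 0 to 257 (0 to 1 both ways). The Cdkn1a difference between the shRNAs ranged over -0.00288 to 0.57. The dose trend gave 45 to 521 and 90 to 294 (0 to 2 lower), with slopes of -0.0755 to 0.0131 for Ccng1, -0.0803 to 0.0356 for Cdkn1a and -0.0910 to 0.0128 for Mdm2. The difference of the topotecan and ICRF-193 effects gave 28 to 542 and 107 to 506 (0 to 2 and 0 to 1), with -0.48 to 0.0222 for Ccng1, -0.46 to 0.21 for Cdkn1a and -0.28 to 0.19 for Mdm2. Hydrogen peroxide gave 726 to 2856 and 728 to 1662 (5 to 11 and 0 to 8), paraquat 679 to 3570 and 306 to 1910 (3 to 5 and 0 to 15), with Fas at -1.71 to 0.28 and Tnfrsf10b at -1.72 to 0.15. Topotecan for 24 h gave 1 to 2 lower, and washout 83 to 122 and 88 to 124 (0 to 1 higher). Where a group had 1 array left, its spread was taken from the other groups of the fit. Genes under the 40th percentile lie near background and were not tested.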
